A study of Danaus plexippus with 32 samples.

Results

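Male brains were compared with female brains in monarch butterflies (*Danaus plexippus*) of 2 strains that lack a working circadian clock, the Cry2 KO and the Clk KO. These are knockouts of cryptochrome 2, the clock's repressor, and of clock, its activator. The comparison took the 16 knockout libraries of the 32 RNA-seq libraries of the series. By their sex labels they formed 4 groups of 4 libraries, which were Cry2 KO male, Cry2 KO female, Clk KO male and Clk KO female, each with 1 library at ZT4, ZT10, ZT16 and ZT22 (Zeitgeber Time, where ZT0 is the onset of light). Each male library was paired with the female library of the same strain and time, giving 8 pairs. Wild-type brains (WT, 8 male and 8 female libraries, 1 of each at 8 times) share no library with the knockouts and were used for comparison. All butterflies were adults entrained for at least 7 days to a cycle with 15 h light and 9 h dark at 25 °C, and each library held 3 pooled brains dissected free of the eye photoreceptors. In these labels every male library is replicate 1 and every female library is replicate 2, so that sex and replicate series cannot be told apart in any result below. Pools, not single brains, are the units of the tests, with 1 pool per strain, sex and time. The p-values thus weigh the mean male minus female difference against how far it varied between pairs, which also differ in strain or time.

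In butterflies and moths the female is the sex with unlike sex chromosomes, carrying a Z and a W, whereas the male carries a pair of Z chromosomes. Genes on the W can be transcribed only in females, and genes on the Z are present in more copies in males. The monarch Z is joined to a former autosome and is therefore long. *Period* (*Per*) and *Triose phosphate isomerase* (*Tpi*) are well-known Z-linked genes of other Lepidoptera. The files place genes on scaffolds of assembly v3, and which scaffolds belong to the Z or the W is not given in the sources used here.

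Levels are FPKM, read numbers corrected for the length of the gene's transcript and for the library's depth, as deposited. For the tests they were put on a log2(FPKM + 1) scale and each library was scaled to a common median, so that differences of low genes are understated. Pair differences in log2 units and counts of pairs use these scaled values, and can differ in sign from the FPKM. Reads on genes were 3004498 to 3992817 in the male knockout libraries and 3218264 to 4126236 in the female ones. *Per* separated the strains in every library, with 39.2 to 46.6 FPKM in Cry2 KO libraries and 3.49 to 5.80 FPKM in Clk KO libraries. *Cry2* itself is no check of the label, with 22.1 to 23.9 FPKM in Cry2 KO libraries against 19.5 to 25.2 FPKM in Clk KO libraries. The neuronal markers *VGlut*, *Ace*, *cac* and *Nlg3* were detected in every knockout library and summed to 209.0 to 358.2 FPKM in males and 279 to 367 FPKM in females. The Cry2 KO ZT22 female library had reads of genes that no other female knockout library expressed (below), and the Clk KO ZT4 male library had a median log2 value of 3.78, against 4.09 in its female partner. In WT the ZT22 pair stood apart, with a standard deviation of the male minus female difference over genes of 0.818 log2 units, against 0.572 to 0.608 in the other WT pairs and 0.552 to 0.635 in the knockout pairs.

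Among 10432 genes with at least 3 FPKM in at least 1 knockout library, 61 were called higher in males (0.585% of genes tested) and 31 higher in females (0.297%), 92 in all (0.882%; limma, Benjamini-Hochberg adjusted p of 0.05 or less). Most differences were small. The median size was 0.38 log2 units for the male-high genes and 0.44 for the female-high genes, and only 2 male-high and 3 female-high genes reached 1 log2 unit. The direction was the same in all 8 pairs for 59 of the 61 male-high genes and for all 31 female-high genes, a pattern that 2.15% and 1.27% of all genes tested had. In 16 of the 31 female-high genes every female library lay above every male library, which 20 genes did in all (0.192% of genes tested), whereas in 4 of the 61 male-high genes every male library lay above every female library, which 4 genes did in all (0.0383%). At an unadjusted p of 0.05 or less there were 1130 genes (10.8%). Without scaling between libraries 12 genes were called male-high (0.115%) and 27 female-high (0.259%), so that male-high genes made up 30.8% of the calls, against 66.3% with scaling. All 61 male-high genes stayed above 0 in that fit. Leaving out the Cry2 KO pair of ZT4, ZT10, ZT16 or ZT22 gave 36, 38, 46 and 59 called genes, and leaving out the Clk KO pair of those times gave 56, 56, 40 and 37. Without the doubted Cry2 KO ZT22 pair 36 genes were male-high (0.345%) and 23 female-high (0.22%), 59 in all (0.566%), and 53 of the 92 genes were among them.

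The male-high gene with the largest difference was DPOGS212555 (scaffold DPSCF300075, from 514515 to 516817). Like all genes given here by identifier alone, it has no name in the files or in the study's gene table. Its FPKM at ZT4, ZT10, ZT16 and ZT22 was 5.05, 5.24, 6.76 and 5.37 in Cry2 KO males, against 0, 0, 0 and 3.49 in Cry2 KO females. In Clk KO males it was 4.69, 7.52, 6.72 and 4.797, and all 4 Clk KO females were listed at 0. Reads were thus found only in males, apart from the Cry2 KO ZT22 female library, whose value came from 5 reads, and male values came from 6 to 10 reads. The male minus female difference was 2.54 log2 units (SE 0.276, adjusted p = 0.006 from limma) over all 8 pairs, and 2.83 (SE 0.133, adjusted p = 1.5e-04) without the Cry2 KO ZT22 pair.

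DPOGS203943 (DPSCF300005, from 68288 to 69431) had the same pattern at a lower level. Its FPKM was 2.24, 3.61, 2.62 and 3.23 in Cry2 KO males, against 0, 0, 0 and 0.901 in Cry2 KO females. Clk KO males had 2.27, 3.30, 2.70 and 2.48 FPKM, and Clk KO females were again listed at 0 throughout. The only female library with reads was again that of Cry2 KO ZT22, with 5, where males had 12 to 17. The difference was 1.87 log2 units (SE 0.164, adjusted p = 0.0024 from limma).

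The opposite pattern was seen for DPOGS213736 (from 2733 to 6137), the only gene tested on the short scaffold DPSCF300619. It was listed at 0 in all 4 Cry2 KO males, against 4.83, 4.66, 4.57 and 2.88 FPKM in Cry2 KO females. Clk KO males had 0, 0.0690, 0 and 0 FPKM, against 5.28, 4.20, 5.95 and 4.49 FPKM in Clk KO females. Females had 44 to 79 reads and males at most 1 read in any library, and the lowest female value was that of Cry2 KO ZT22. The difference was -2.39 log2 units (SE 0.134, adjusted p = 1.7e-04 from limma).

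DPOGS209204 (DPSCF300061, from 808437 to 816762) was also nearly absent from males, but varied among females. Its FPKM was 0, 0, 0 and 0.447 in Cry2 KO males, against 3.58, 1.153, 1.10 and 2.79 in Cry2 KO females. In the Clk KO it was 0, 0.376, 0.747 and 0.343 in males, against 5.598, 5.72, 2.66 and 7.50 in females. The ranges did not overlap, although male values rested on at most 2 reads and female values on 3 to 19. The difference was -1.74 log2 units (SE 0.223, adjusted p = 0.0095 from limma).

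**Figure D1:**
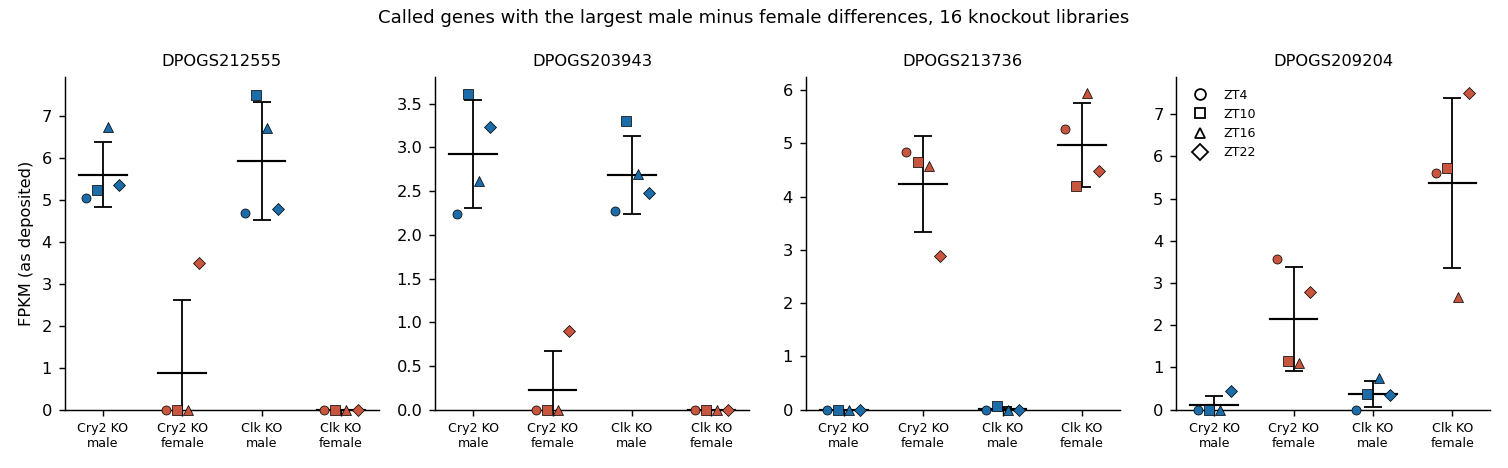
FPKM as deposited of the 2 male-high and the 2 female-high called genes with the largest differences, in Cry2 KO males, Cry2 KO females, Clk KO males and Clk KO females. Each point is 1 library (shape: time), lines are means and bars 1 SD (n = 4, cut at 0), and the diamond at 3.49 FPKM of DPOGS212555 is the Cry2 KO ZT22 female library.

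A larger number of the called genes were expressed in both sexes at unequal levels, and 3 female-high ones are given here, the first 2 chosen after their values were seen. The called genes went down to a size of 0.17 log2 units among male-high genes and 0.22 among female-high genes. DPOGS214841 (DPSCF300091, from 350168 to 352228) was the most abundant of the called genes. Cry2 KO males had 2387, 1933, 1358 and 2690.4 FPKM, against 4710.0, 3823, 3231 and 3459 FPKM in Cry2 KO females. Clk KO males had 2673, 2374, 2469 and 2570.5 FPKM, against 4493, 5446.5, 6374 and 5157 FPKM in Clk KO females. The male mean was 0.503 times the female mean (2307 ± 452 against 4587 ± 1067, SD, n = 8 each), with no overlap between the sexes. The difference was -0.92 log2 units (SE 0.117, adjusted p = 0.0095 from limma), and its smallest pair difference, -0.36, was at Cry2 KO ZT22.

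DPOGS200090 (DPSCF300044, from 14967 to 33807) lies 29069 bases from *Tpi*. It had 790.4, 946, 949.5 and 853 FPKM in Cry2 KO males, against 1388, 1399, 1390.3 and 1272 FPKM in Cry2 KO females. Clk KO males had 801, 838, 1018 and 909.8 FPKM, against 1466, 1663, 1661 and 1681 FPKM in Clk KO females. The 2 sexes were well apart at every time, by -0.67 log2 units (SE 0.0433, adjusted p = 3.0e-04 from limma). *CG15890* (DPOGS205855, DPSCF300081, from 424793 to 431954), which carries the name of a fly gene, was the only called gene among the 425 tested genes with a symbol. It had 36.4, 28.7, 28.9 and 31.5 FPKM in Cry2 KO males, against 43.4, 41.5, 35.0 and 38.02 FPKM in Cry2 KO females, and 23.6, 26.0, 25.8 and 23.8 FPKM in Clk KO males, against 38.4, 45.2, 35.2 and 31.6 FPKM in Clk KO females. Females were higher in 8 of 8 pairs, although the highest Cry2 KO male lay above the lowest female value (-0.38 log2 units, SE 0.0514, adjusted p = 0.013 from limma). These 3 genes and the 4 above were called in all 18 alternative fits.

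Taken one by one, neither knockout gave a called gene. With 4 pairs each, 0 genes passed in the Cry2 KO (smallest adjusted p = 0.18 from limma) and 0 in the Clk KO (smallest adjusted p = 0.17 from limma), whereas 850 genes (8.15%) and 784 genes (7.52%) had an unadjusted p of 0.05 or less. A fit over all 32 libraries, which share 1 estimate of the spread, called 8 male-high and 12 female-high genes in the Cry2 KO and 21 male-high and 14 female-high genes in the Clk KO. Leaving out the Cry2 KO ZT22 pair gave 1 called gene in the Cry2 KO, DPOGS200763, and leaving out the Clk KO ZT4 pair gave 1 in the Clk KO, DPOGS215478. Both are named only for these counts, and each had at most 3 reads in any knockout library. The sex difference of DPOGS213736 was -2.37 log2 units (SE 0.186) in the Cry2 KO and -2.40 (SE 0.202) in the Clk KO. For DPOGS212555 it was 2.17 (SE 0.447) in the Cry2 KO, which holds the doubted library, and 2.92 (SE 0.195) in the Clk KO.

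Whether the sex difference itself differed between the knockouts was tested as an interaction, Cry2 KO minus Clk KO. No gene passed (0 of 10432, smallest adjusted p = 0.82 from limma), and 525 genes (5.03%) had an unadjusted p of 0.05 or less. Leaving out the Clk KO ZT4 pair gave 1 called gene, the same DPOGS215478 with at most 1 read per knockout library. Across all genes tested, the differences of the 2 knockouts were weakly related (Pearson r = 0.09, Spearman rho = 0.16, a description across genes, which are not independent replicates). The 92 called genes all had the same direction in each knockout, but they were chosen on both together.

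The WT libraries offered genes chosen outside the knockouts. In the same fit 54 genes were male-high (0.518%) and 72 female-high (0.69%) in WT, 126 in all (1.21%). In the knockouts, 49 of the 54 and 67 of the 72 had the same direction, with medians of 0.28 and -0.34 log2 units, against 0.49 and -0.55 in WT, where these values chose the genes. Of the 54 and 72 genes, 17 (31.5%) and 21 (29.2%) were called the same way in the knockouts, against 0.585% and 0.297% of all genes tested. Without the WT ZT22 pair, an alternative chosen after the data were seen, 151 genes were male-high (1.45%) and 137 female-high (1.31%) in WT, of which 54 and 69 were among the genes called with all pairs. In the knockouts 139 of the 151 and 120 of the 137 had the same direction, and 16.6% and 16.1% were called. Seen from the other side, 27.9% of the 61 male-high and 67.7% of the 31 female-high genes of the knockouts were called the same way in WT, and 0 genes were called in opposite directions with all WT pairs. The medians of the 54 male-high WT genes were 0.22 in the Cry2 KO and 0.37 in the Clk KO, and those of the 72 female-high WT genes were -0.33 and -0.30. Within single pairs, 41 to 51 of the 54 genes were higher in the male and 53 to 67 of the 72 higher in the female.

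DPOGS212555 had 4.48 to 14 FPKM in WT males and was listed at 0 in all 8 WT females. DPOGS213736 had at most 0.0910 FPKM in WT males, against 2.92 to 4.62 FPKM in WT females. The abundant DPOGS214841 had 1816 to 2520.0 FPKM in WT males, against 4507 to 5682 FPKM in WT females, and a difference of -1.23 log2 units (SE 0.0764). Each of these 3 genes thus had the same direction in the knockouts and in WT. The interaction of sex with genotype, knockouts minus WT, had 0 called genes (smallest adjusted p = 0.056 from limma), with 799 genes (7.66%) at an unadjusted p of 0.05 or less. DPOGS209204, with a sex difference of -1.74 log2 units in the knockouts and -2.73 in WT, had an interaction of 0.98 (SE 0.278, adjusted p = 0.41 from limma).

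Without the WT ZT22 pair 1 gene passed the interaction test, DPOGS203962 (DPSCF300005, from 460453 to 468067), which was chosen after its values were seen and is one of the 31 female-high genes. Its FPKM was 7.84, 6.94, 6.24 and 5.48 in Cry2 KO males, against 10.56, 8.57, 8.97 and 8.03 in Cry2 KO females, and 6.01, 7.86, 8.12 and 8.31 in Clk KO males, against 9.67, 11.6, 9.71 and 12.8 in Clk KO females. In WT it had 8.29 to 9.90 FPKM in males, against 4.64 to 10.3 FPKM in females, so that males were lower in every knockout pair and mostly higher in WT. The lowest WT female value was that of ZT22, and the other WT females had 7.28 to 10.3 FPKM. The values came from 87 to 225 reads in the knockouts. The interaction was -0.54 log2 units (SE 0.0771, adjusted p = 0.041 from limma) without the WT ZT22 pair, and -0.59 (SE 0.0894, adjusted p = 0.056) with it.

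**Figure D2:**
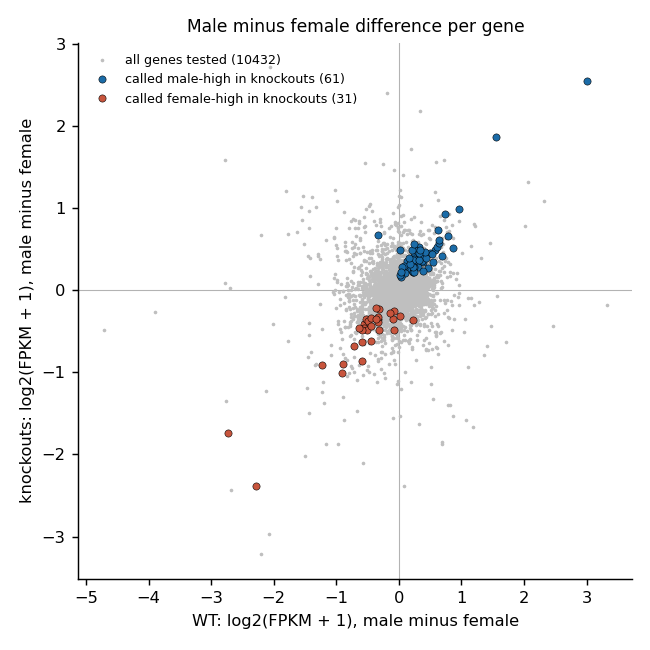
Male minus female difference in log2(FPKM + 1) per gene, knockouts (y axis, 8 pairs) against WT (x axis, 8 pairs), for the 10432 genes tested. Of the coloured genes, called in the knockouts, 60 of 61 male-high and 29 of 31 female-high genes had the same sign in WT.

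These 126 genes also placed each knockout library between the mean of the WT females (0) and that of the WT males (1). Cry2 KO males lay at 0.77, 0.88, 0.96 and 0.92 at ZT4, ZT10, ZT16 and ZT22, and Cry2 KO females at 0.28, 0.37, 0.29 and 0.49. Clk KO males lay at 0.78, 0.73, 0.77 and 0.64, and Clk KO females at 0.15, 0.13, 0.15 and 0.23. Every knockout library labelled male thus lay above every library labelled female, so that none was on the wrong side of its label. The Cry2 KO ZT22 female library was the highest of the 8 females. Every knockout library lay inside the 2 WT means. With the 102 genes outside scaffolds DPSCF300001 and DPSCF300012 the Cry2 KO ZT22 female lay at 0.48, and with the genes called without the WT ZT22 pair at 0.47.

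**Figure D3:**
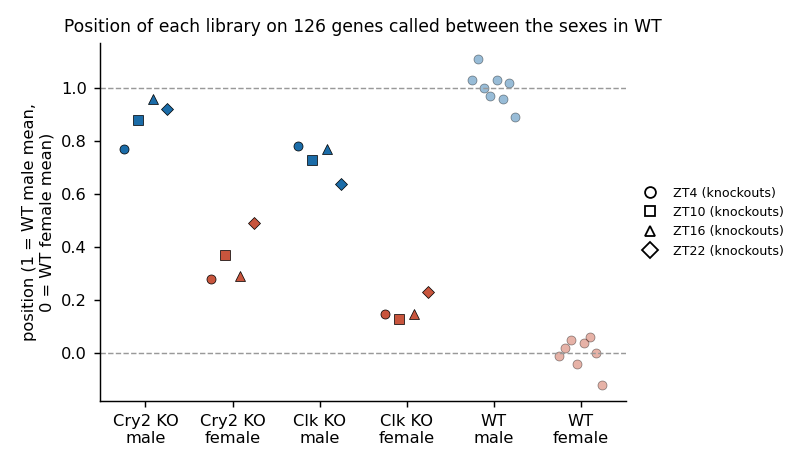
Position of each library (1 point each) on the 126 genes called between the sexes in WT, where 1 is the mean of the WT males and 0 that of the WT females. WT libraries chose the genes and are shown for scale, and the 8 male knockout libraries (0.64 to 0.96) lie above the 8 female ones (0.13 to 0.49).

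Male-high genes were unevenly spread over the genome. Of the 61, 42 (68.9%) were on 6 scaffolds that each held at least 20 genes tested and at least 3 male-high genes, a choice made after the calls were seen. These scaffolds hold 673 of the genes tested (6.45%), of which 6.24% were male-high, against 0.195% of the other 9759 genes. They held 6 of the 31 female-high genes (19.4%). DPSCF300001 had 21 male-high and 2 female-high genes among 314, and DPSCF300012 had 7 and 0 among 63. DPSCF300003 had 5 and 2 among 84, DPSCF300005, on which *Per* lies, had 3 and 1 among 63, DPSCF300068 had 3 and 0 among 47, and DPSCF300028 had 3 and 1 among 102. The short DPSCF300134 had 5 male-high genes among only 18 tested.

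Over all genes tested on a scaffold, called genes included, the median male minus female difference was 0.17 log2 units on DPSCF300012, where 77.8% of the genes were higher in males, and 0.069 on DPSCF300001 (68.2%), against 0.008 over all genes (53.5%). Medians were 0.091 on DPSCF300005, 0.089 on DPSCF300068, 0.063 on DPSCF300003 and 0.025 on DPSCF300028. DPSCF300138, with 0 male-high genes among 28, had 0.064, and the 174 scaffolds with at least 20 genes ranged from -0.11 to 0.17. On DPSCF300012 the median was above 0 in 8 of 8 pairs (0.065 to 0.29), and on DPSCF300001 likewise (0.038 to 0.13). It was 0.13 in the Cry2 KO, 0.17 in the Clk KO and 0.15 in WT on DPSCF300012, and 0.070, 0.087 and 0.097 on DPSCF300001. Genes of a scaffold are not replicates, and these medians depend on the scaling. Without it the median over all genes was -0.062, and those of DPSCF300012, DPSCF300001, DPSCF300003 and DPSCF300028 were 0.10, -0.002, -0.007 and -0.045, each still above that of all genes.

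Along DPSCF300001 the lean was not uniform. In segments of 1000000 bases the median difference was 0.016 (39 genes), 0.091 (72 genes), 0.061 (62 genes), 0.093 (65 genes), 0.10 (35 genes) and 0.065 (29 genes), and -0.035 for the 12 genes of the last one. Of the 21 male-high genes, 8 were in the second segment, which also held the most genes tested. In the order of the genes tested, called genes also followed each other. There were 9 pairs of adjacent male-high genes and 1 pair of adjacent female-high genes (DPSCF300003, from 479017 to 504682). Genes that were not tested can lie between them, and the gaps were 701 to 48283 bases. A share of such pairs over all genes tested was not worked out. None of these pairs overlapped, and no adjacent genes were called in opposite directions. A run of 3 male-high genes lay on DPSCF300001 between 1327518 and 1340233, and another 3 on DPSCF300012 between 317752 and 332518.

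**Figure D4:**
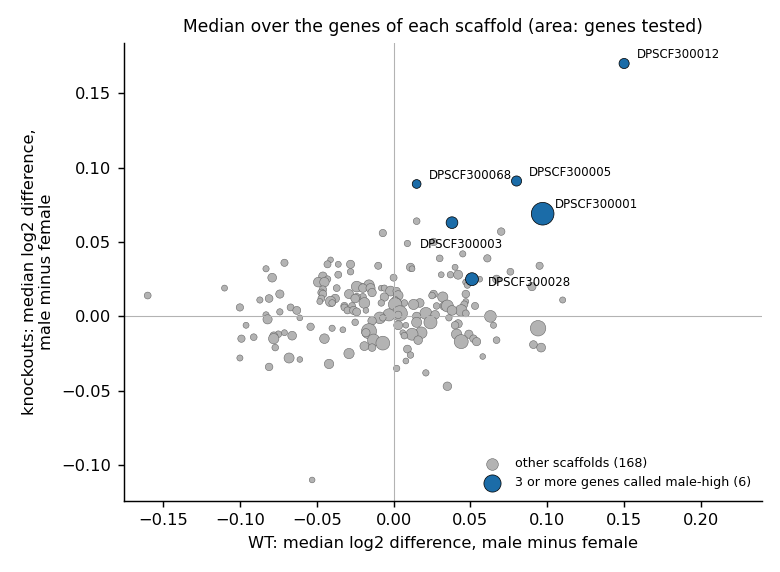
Median male minus female difference in log2(FPKM + 1) of the 174 scaffolds with at least 20 genes tested, in the knockouts (y axis) against WT (x axis), with areas in proportion to the genes tested. The 6 coloured scaffolds hold 3 or more male-high genes, and DPSCF300012 (0.17 in the knockouts, 0.15 in WT) is the highest in both.

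None of the 5 clock genes with an identifier was called between the sexes, where 0.882% of all genes tested were called. *Per* (DPOGS203908, DPSCF300005, from 951403 to 967368), a clock gene whose protein forms complexes with TIM and CRY2, had 42.3, 45.9, 46.6 and 44.4 FPKM in Cry2 KO males at ZT4, ZT10, ZT16 and ZT22, against 43.2, 43.4, 39.2 and 42.2 FPKM in Cry2 KO females. In the Clk KO it had 3.49, 4.29, 5.01 and 4.84 FPKM in males, against 5.80, 5.46, 5.24 and 4.82 FPKM in females. The sexes overlapped in each strain, and levels differed widely between strains. The difference over both strains was -0.001 log2 units (SE 0.0530, adjusted p = 1 from limma, exact sign-flip permutation p = 0.97 over 8 pairs, two-sided). It was 0.087 (SE 0.0454) in the Cry2 KO and -0.090 (SE 0.110) in the Clk KO. The interaction was 0.18 (SE 0.0938, unadjusted p = 0.095 and adjusted p = 0.95 from limma).

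*Timeless* (*Tim*, DPOGS214179, DPSCF300014, from 142094 to 150218), the partner of *Per* in flies, had 63.7, 66.2, 69.9 and 69.8 FPKM in Cry2 KO males, against 62.4, 61.6, 58.2 and 63.0 FPKM in Cry2 KO females. The Cry2 KO males thus all lay above the females. In the Clk KO, males had 19, 20.8, 29.5 and 27.2 FPKM, against 24.6, 34.0, 31.3 and 29.8 FPKM in females, which were higher at each time. The pair differences were 0.093 to 0.16 in the Cry2 KO and -0.50 to -0.048 in the Clk KO. The test of this difference between strains gave 0.30 log2 units (SE 0.111, unadjusted p = 0.027 and adjusted p = 0.95 from limma), and the overall difference was -0.018 (SE 0.0718, adjusted p = 0.97 from limma).

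*Cry2* (DPOGS208079, DPSCF300282, from 74489 to 79584) had 22.6, 23.9, 23.2 and 22.1 FPKM in Cry2 KO males, against 23.4, 22.2, 22.3 and 23.2 FPKM in Cry2 KO females, and 19.9, 19.5, 24.5 and 20.6 FPKM in Clk KO males, against 22.1, 25.0, 23.4 and 25.2 FPKM in Clk KO females. On the scaled log2 values each sex was higher in 4 of 8 pairs, although the FPKM above lean to females in more pairs. The difference was -0.013 log2 units (SE 0.0495, adjusted p = 0.97 from limma). *Vrille* (*Vri*, DPOGS208606, DPSCF300052, from 257703 to 259229), a regulator of clock expression in flies, had 29.9, 35.2, 31.8 and 29.3 FPKM in Cry2 KO males, against 27.9, 32.01, 32.3 and 27.4 FPKM in Cry2 KO females. Clk KO males had 12.2, 15.3, 14.7 and 14.8 FPKM, against 16.2, 15.6, 16.8 and 23.98 FPKM in Clk KO females. The sexes differed most at ZT22 in the Clk KO, by -0.59 log2 units, against an overall difference of -0.049 (SE 0.0834, adjusted p = 0.91 from limma). The difference of *Vri* was 0.070 (SE 0.0697) in the Cry2 KO and -0.17 (SE 0.131) in the Clk KO. Its interaction was 0.24 (SE 0.156, unadjusted p = 0.16 and adjusted p = 0.96 from limma).

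*Clockwork orange* (*Cwo*, DPOGS209925, DPSCF300180, from 115531 to 130653), a repressor of the clock in flies, had 17.8, 24.3, 18.5 and 21.2 FPKM in Cry2 KO males, against 23.5, 20.2, 20.95 and 19.8 FPKM in Cry2 KO females. Clk KO males had 4.11, 5.82, 4.04 and 5.31 FPKM, against 6.43, 5.01, 5.58 and 6.46 FPKM in Clk KO females. In both strains *Cwo* was lower in males at ZT4 and ZT16 and higher at ZT10, and its difference was -0.078 log2 units (SE 0.0900, adjusted p = 0.84 from limma). The 5 genes had exact sign-flip permutation p-values of 0.43 to 0.97 (two-sided, 8 pairs), where the smallest p that 8 pairs allow is 0.0078.

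**Figure D5:**
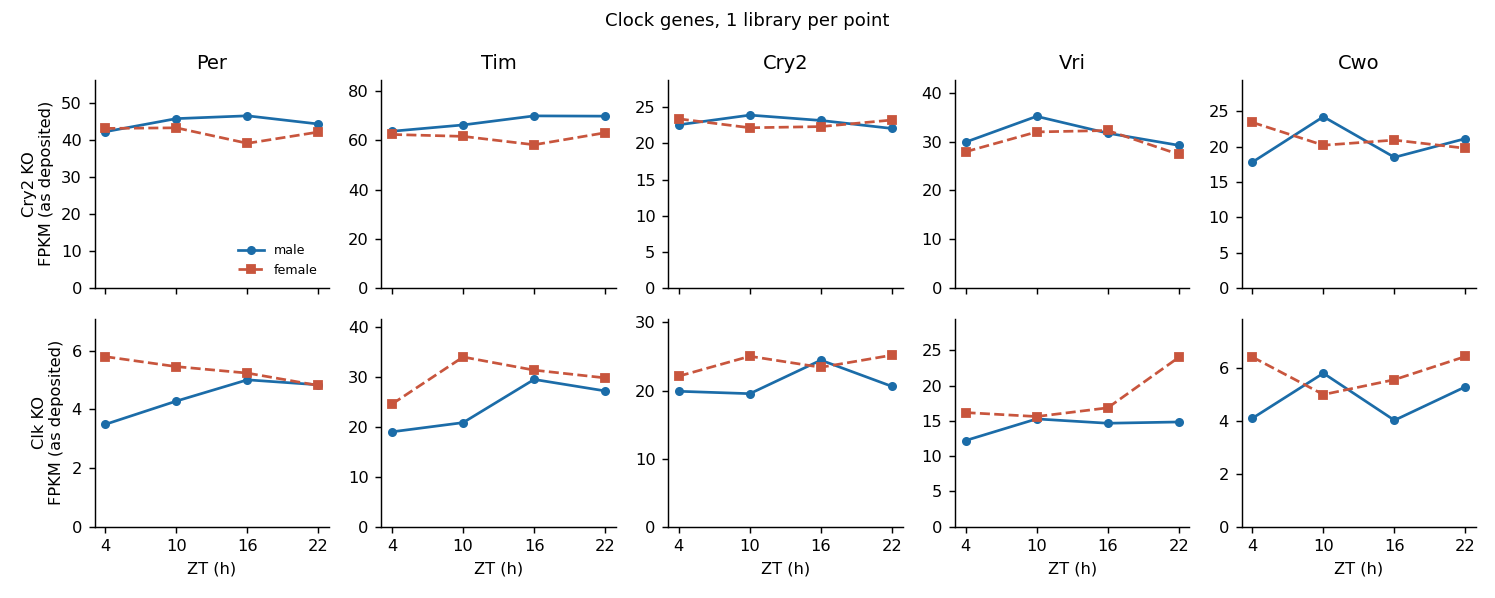
FPKM as deposited (y axis, from 0) of 5 clock genes by time (ZT in h, x axis) in male (solid) and female (dashed) libraries of the Cry2 KO (top) and the Clk KO (bottom), 1 library per point. The 2 sexes lie close together compared with the gap between strains, as for *Per* (39.2 to 46.6 in the Cry2 KO, 3.49 to 5.80 in the Clk KO).

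*Tpi* (DPOGS200089, DPSCF300044, from 62876 to 64128), a glycolytic enzyme, had 335, 306, 321 and 340.7 FPKM in Cry2 KO males, against 307, 300.7, 293 and 319 FPKM in Cry2 KO females. It had 308, 335, 357 and 319.8 FPKM in Clk KO males, against 289.8, 319, 339 and 317 FPKM in Clk KO females. Males were higher in 8 of 8 pairs (exact sign-flip permutation p = 0.0078, two-sided, the smallest 8 pairs allow), as in 8 of 8 WT pairs. As FPKM, the male mean was 1.056 times the female mean. Scaling changed single pair differences, as at Clk KO ZT4 (308 against 289.8 FPKM, 0.39 log2 units after scaling). On the scaled values the difference was small, 0.15 log2 units (SE 0.0479), and did not pass the test over all genes (adjusted p = 0.26 from limma). It was 0.19 in WT (SE 0.0661, adjusted p = 0.24). *Tpi* and DPOGS200090, on the same scaffold, thus differed in direction. Over the 47 genes tested on that scaffold the median difference was 0.001 log2 units, with 0 male-high and 2 female-high genes.

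The other lists of brain genes had 0 called members, which at 0.882% called over all genes tested says little about lists of this size. Among 16 genes of trehalose, glucose and glycogen metabolism 7 were above 0 and 9 below, with a median of -0.016 log2 units, against 0.008 over all genes. *Tret1-1*, a trehalose transporter, had the most negative difference (4.32 ± 2.55 FPKM in males and 8.28 ± 4.62 FPKM in females, SD, n = 8 each; -0.75 log2 units, SE 0.232, adjusted p = 0.24 from limma), with 6 of 8 pairs lower in males. Among 17 genes of transmitters, peptides and receptors 10 were above 0 and 7 below, with a median of 0.007.

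Marker lists of other tissues were read in the same way. The 5 eye and vision genes had 0 called members (0.882% over all genes tested). All 5 fitted differences were above 0 (53.5% over all genes tested), with a median of 0.088. *Pdh* (0.049) was nevertheless higher in the male in only 2 of 8 pairs. Mean FPKM was lower in males for *Pdh* (24.65 against 24.98) and the *santa-maria* gene DPOGS203890 (59.08 against 61.03). It was higher in males for *ninaB*, *sev* and the *santa-maria* gene DPOGS202827. *NinaB*, which makes retinal from carotenoids in flies, was the nearest to the threshold (18.5 ± 4.06 FPKM in males and 15.4 ± 2.64 FPKM in females, SD, n = 8 each; 0.31 log2 units, SE 0.0598, 8 of 8 pairs, adjusted p = 0.051 from limma). Its WT difference was 0.054 log2 units, with the male higher in 4 of 8 WT pairs. Summed levels of this list overlapped, with 163 to 198 FPKM in males and 158 to 196 FPKM in females. Glial and blood-brain barrier genes had a median of -0.056 and sums of 594 to 989.5 FPKM in males and 793 to 945 FPKM in females. Muscle genes had a median of -0.005 (954 to 1505 FPKM in males and 1084 to 1428 FPKM in females), and cuticle genes one of -0.11 (238 to 531 FPKM in males and 251 to 480.5 FPKM in females). No marker of these lists was at 0 in any knockout library, and their part in the differences above was not tested.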

How the data were processed

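The authors extracted RNA from pools of 3 brains, prepared libraries with the NEBNext Ultra Directional kit, and sequenced 50-bp single ends. Reads were demultiplexed with CASAVA 1.8.2 (submitters' processing notes), mapped with TopHat2 to assembly v3 with 1 location kept per read, and quantified with Cufflinks. TopHat2 and Cufflinks versions, and whether quantification used strand, are not given in the sources used here. The deposited values are FPKM for 15130 genes per library with a 95% interval, and no counts. Read numbers were worked out from how wide each interval is (86.99% of values under 20 reads were within 0.05 of a whole number), and intervals cover counting error only. No 2 libraries had identical values.

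FPKM were filtered (at least 3 in any of the 16 knockout libraries), transformed to log2(FPKM + 1) and scaled to a common median. They were fitted with limma 3.58.1 in R 4.3.3 (moderated test with intensity trend, pair as a factor, Benjamini-Hochberg adjustment over 10432 genes). Interactions were fitted over 16 or 32 libraries. Sign-flip permutation over the 8 pairs was exact (256 flips). The fits were tested on simulated data. Python 3.11.15, numpy 2.4.6, pandas 2.3.3 and matplotlib 3.10.9 were used for the rest. Alternatives were no scaling, quantile normalization, a pseudocount of 0.1, other filters, no pair factor, no trend, all 32 libraries, and each pair left out in turn. Leaving out the WT ZT22 pair was added after the data were seen.

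The members and lists were chosen with earlier results of these data known. Named genes were the 2 male-high and the 2 female-high genes with the largest differences among those called with the same direction in every pair, called genes with a symbol, the clock genes and *Tpi*. No gene was called in single knockouts or interactions, so that none was named from them. Genes named outside this rule were chosen after their values were seen (DPOGS214841, DPOGS200090, DPOGS203962, DPOGS200763, DPOGS215478, and the list members nearest to the threshold or with the largest difference). Symbols come from the study's table of rhythmic genes (427 genes). The RefSeq gene table at hand holds 0 of the identifiers, so that no sequence is shown. *Clk* has no identifier in the sources used here and was not analysed here.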

Additional observations from a re-analysis of the deposited data

Results flagged for a closer look

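Sets were flagged for an end value far from the others, which chance gives in about 1 in 20. That rate does not hold where the other libraries of a group were at 0, since any read is then flagged. Among groups of 4 libraries and sets of 8 pair differences, 84 in all, 13 were flagged. Of these, 4 concerned the Cry2 KO ZT22 female library, which was high for the male-specific genes DPOGS212555 (3.49 FPKM) and DPOGS203943 (0.901 FPKM), and low for the female-high genes DPOGS213736 (2.88 FPKM) and DPOGS200090 (1272 FPKM), compared with the other 3 Cry2 KO females. The Cry2 KO ZT22 pair had the lowest difference for DPOGS212555 (0.50 log2 units) and for DPOGS203943 (1.16 log2 units). The values of this library were between those of the sexes for these genes, and its make-up was not tested.

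The other values were single libraries or pairs. DPOGS213736 had 0.0690 FPKM in the Clk KO ZT10 male, from 1 read, and DPOGS209204 had 0.447 FPKM in the Cry2 KO ZT22 male, also from 1 read, where the other males of those groups were at 0. DPOGS200090 was lowest in the Clk KO ZT4 female among Clk KO females (1466 FPKM), and *Hsf*, the heat shock transcription factor, was lowest in the same library (26.1 FPKM). *Tim* had its lowest pair difference in the Clk KO at ZT10 (-0.50 log2 units). *Vri* was highest in the Clk KO ZT22 female among Clk KO females (23.98 FPKM), which gave the lowest pair difference of that gene (-0.59 log2 units).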

How the results depend on the processing

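No gene of the 92 changed direction in any of 18 alternatives, and 18 of them (7 male-high, 11 female-high) were called in every one. The total of 92 was 39 without scaling and 142 without the pair factor, lay between 79 and 104 under the other settings that kept all pairs, and was 120 without the pair factor and the Cry2 KO ZT22 female library. Leaving out each pair gave 36 to 59 genes, with 34 to 53 of the 92 among them. In single knockouts, where 0 genes were called, the fit over all 32 libraries gave 20 in the Cry2 KO and 35 in the Clk KO, and the Clk KO had 3 genes without a filter and 3 without the intensity trend. Leaving out each pair gave 0 to 1 genes in the Cry2 KO, in the Clk KO and in the interaction of sex with knockout. Without the WT ZT22 pair, an alternative added after the data were seen, WT had 288 called genes, against 126, and the interaction of sex with genotype 1, against 0. The cause was not tested. Values near 0 changed sign when 1 Clk KO pair was left out. Over all pairs left out, *Per* lay between -0.022 and 0.040, with 0.014 and 0.003 without Clk KO ZT10 and ZT16, *Tim* between -0.044 and 0.051, *Cry2* between -0.038 and 0.014, with 0.008 without Clk KO ZT10, and *Vri* between -0.084 and 0.027, all in log2 units and none called. Without scaling, which moved the median of all genes to -0.062, the scaffold medians of DPSCF300001, DPSCF300003 and DPSCF300028 were -0.002, -0.007 and -0.045. With the replicate number as a block, no paired analysis was possible because each sex carries 1 replicate number. The pairs in the fits are those of strain and time. With 3004498 to 4126236 reads on genes per library, the values of DPOGS212555, DPOGS203943 and DPOGS209204 in the knockouts rest on under 20 reads each.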

Other observations

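Among 8 ecdysone-related genes, such as *ftz-f1* and *Cyp18a1*, 5 were above 0 and 3 below in males relative to females, with a median of 0.021 log2 units and 0 called. Among 10 heat shock and chaperone genes, 4 were above 0 and 6 below (median -0.027), again with 0 called, where 0.882% of all genes tested were called. *Hsf* had the lowest adjusted p of these lists. It had 38.6 ± 16.1 FPKM in males and 44.1 ± 14.9 FPKM in females (SD, n = 8 each, with both strains in the spread), and was lower in males in 8 of 8 pairs (-0.16 log2 units, SE 0.0359, adjusted p = 0.094 from limma). Its WT difference was -0.034 log2 units.

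Single pairs held larger differences than the fit over pairs. Between 154 and 280 genes were at least 1 log2 unit higher in the male of a knockout pair, and between 184 and 305 at least 1 log2 unit higher in the female. The 54 male-high WT genes had medians of 0.23 to 0.30 log2 units in the 4 Cry2 KO pairs and of 0.30 to 0.46 in the 4 Clk KO pairs.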
